A study of Mus musculus with 4 samples.

Results

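The collagen genes of skeletal muscle, together with the enzymes that modify, fold and cross-link the collagen chains, were followed through denervation in WT and Fgf21KO mice. They were taken as every gene of the count table whose symbol begins with Col and has the form of a collagen chain, or begins with P4ha, Plod or Lox, plus Serpinh1. Of the 13825 genes in the table, 40 matched, and all 40 were among the 13084 that averaged at least 10 reads per library and were tested. They comprise 28 collagen chains, 11 enzymes and chaperones, and Col4a3bp. Col4a3bp encodes a ceramide transfer protein and matched by its name alone. Its counts were 1850, 2564, 2570 and 2399 in the 4 libraries, and it is kept in the counts over 40 genes but not described further.

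Collagens are secreted proteins whose chains wind around each other into a rope-like helix. Fibrillar collagens (types I, III and V in muscle) form the fibres of the epimysium, perimysium and endomysium, collagen IV forms the sheet-like network of the basement membrane around each muscle fibre and capillary, and collagen VI joins the basement membrane to the surrounding matrix. Before secretion, prolyl 4-hydroxylases (P4ha) and lysyl hydroxylases (Plod) modify the chains and Serpinh1 (HSP47) chaperones their folding. After secretion, lysyl oxidases (Lox and the Loxl enzymes) cross-link them. In resting muscle, fibro-adipogenic progenitors and fibroblasts are the main source of the fibrillar chains.

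Each library was made from the tibialis anterior (TA) muscle of adult male mice, 14 days after surgery. On the left, a piece of the sciatic nerve was taken out, given as 2 mm in the series record and as a longer segment in the study's methods. The other leg, with its nerve left whole, served as control. It is given as innervated in the series record and as sham-operated in the study's methods. The 2 WT libraries are called WS (sham) and WD (denervated), and the 2 Fgf21KO libraries KS (sham) and KD (denervated). Fgf21KO mice lack the growth factor Fgf21 in the whole body, so a difference from WT is not limited to muscle, and the strain on which the knockout was kept is not given in the sources used here. For each library 4 muscles were pooled, so each group is 1 library, the spread between animals was not measured, and the sham and denervated pools of a genotype may come from the same mice. Fgf21 itself was not analysed here and gives no check of the genotype labels.

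Total counts ran from 25249879 in WS to 34141303 in KS. The 13 protein genes encoded in mitochondria took 27.0% of the counts in WS and 30.4% in KS, against 19.4% in WD and 20.6% in KD. Of the muscle fibre markers listed, Myh1, Tnni2 and Mylpf were analysed here, and they summed to between 25476 and 41913 CPM, the count scaled to library size. Because the mitochondrial share differs between sham and denervated muscle, CPM were scaled by TMM, which sets the typical gene to a ratio near 1. Scaling by total counts alone would raise the median log2 ratio of all genes to 0.29 for WD vs WS and 0.36 for KD vs KS. All ratios here are therefore relative to the typical gene of the same pair of libraries. A gene is said to rise or fall with denervation only where edgeR's quasi-likelihood test over all 4 libraries, with genotype as a second term, gave an adjusted p below 0.05 with a log2 ratio at or beyond 1 in either direction. A ratio within a pair of libraries has no replicate check, and its 95% interval covers counting error only.

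Denervation changed 10 of the 40 genes. The collagen chains Col4a5 and Col25a1, the lysyl hydroxylase Plod2 and the lysyl oxidase Lox rose (4 genes), while Col4a3, Col4a4, Col5a1, Col6a2, Col6a6 and Loxl2 fell (6 genes). With scaling by total counts alone all 4 rises remained, and of the 6 that fell, Col4a3 and Col6a6 kept the call while Col4a4, Col5a1, Col6a2 and Loxl2 lost it. Over all genes tested, 6.84% rose and 6.24% fell by the same rule. By the adjusted p alone, without the 2-fold limit, 5 of the 40 were higher and 22 lower, where 26.6% of all genes were higher and 27% lower. The median log2 ratio of the 40 genes was -0.63 for WD vs WS and -0.35 for KD vs KS, and that of all genes tested was 0.01 in both. In both genotypes 24 of the 40 genes (60%) were lower after denervation, as were 40.8% of all genes.

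**Figure D1:**
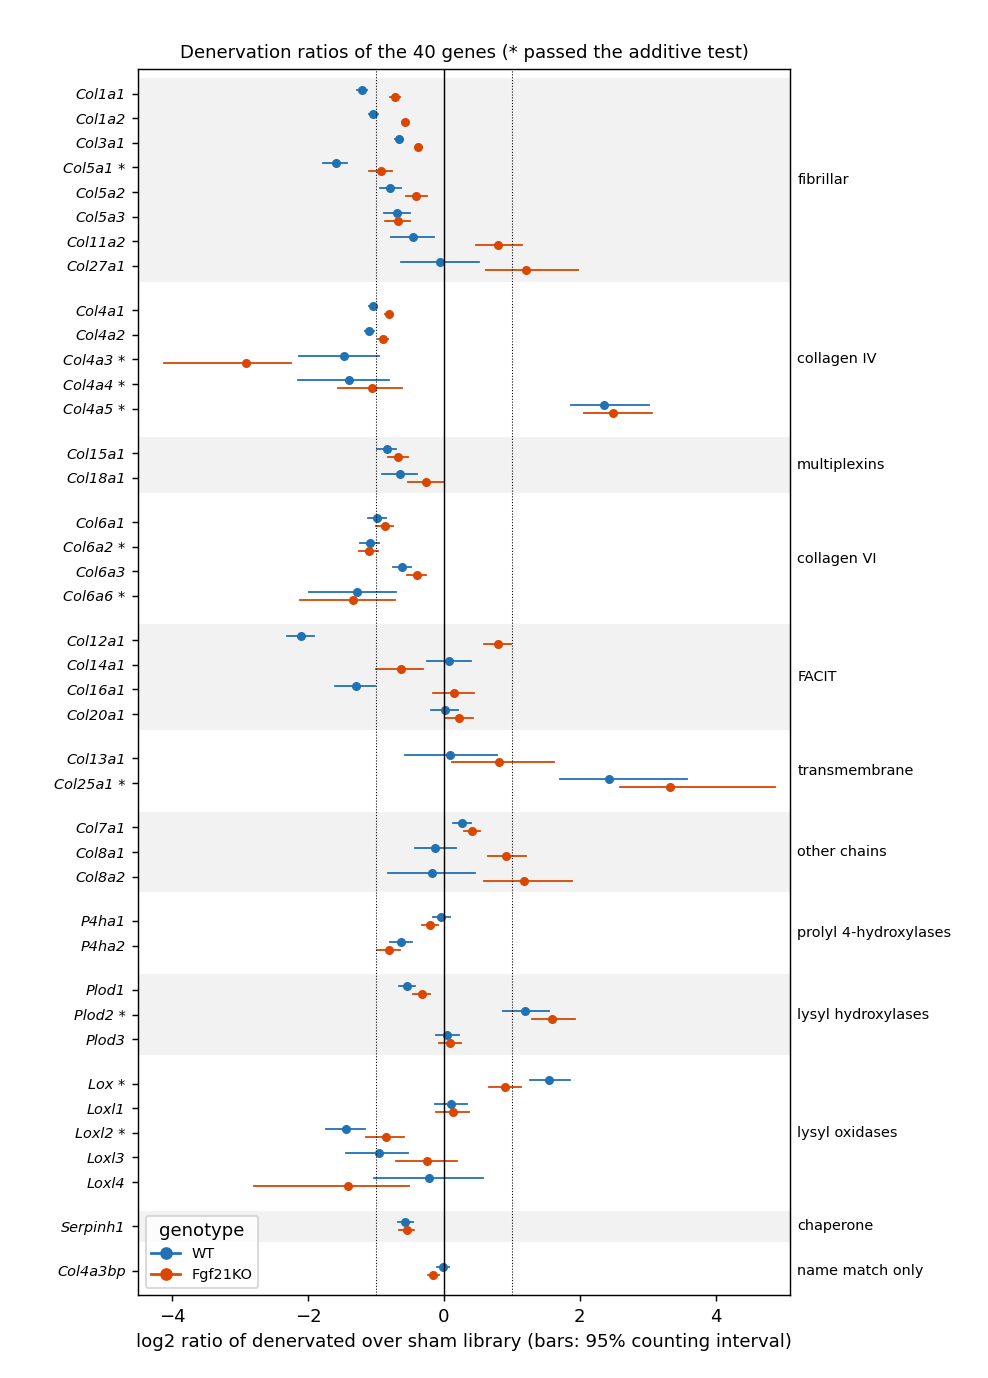
Log2 ratio of the denervated over the sham library for the 40 genes, in WT (blue) and Fgf21KO (orange), grouped by class, with 95% counting intervals as bars and dotted lines at a 2-fold change. Most fibrillar, collagen IV and collagen VI chains lie left of 0 in both genotypes, while Col4a5, Col25a1, Plod2 and Lox lie to the right.

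The level of collagen transcripts as a whole was lower after denervation. Summed over the 28 chains, collagen transcripts made up 1475 CPM in WS against 788 in WD, and 1222 in KS against 840 in KD. The denervated sum was 53.4% of the sham sum in WT and 68.7% of it in Fgf21KO. The 11 enzymes and chaperones summed to 234, 194, 222 and 189 CPM in the same order, with the denervated sums at 82.8% and 85.2% of sham. Summed over all genes, CPM in this scaling were 82.2% of sham in WT and 78.0% in Fgf21KO, so the enzyme sums lay at or above that level and the chain sums below it. As a share of total counts the chains stood at 65.0% of sham in WT and 88.1% in Fgf21KO, while the enzymes and chaperones stood at 101% and 109%, so their direction turns with the scaling. In a bulk sample, fewer cells of a type and less RNA per cell cannot be told apart.

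**Figure D2:**
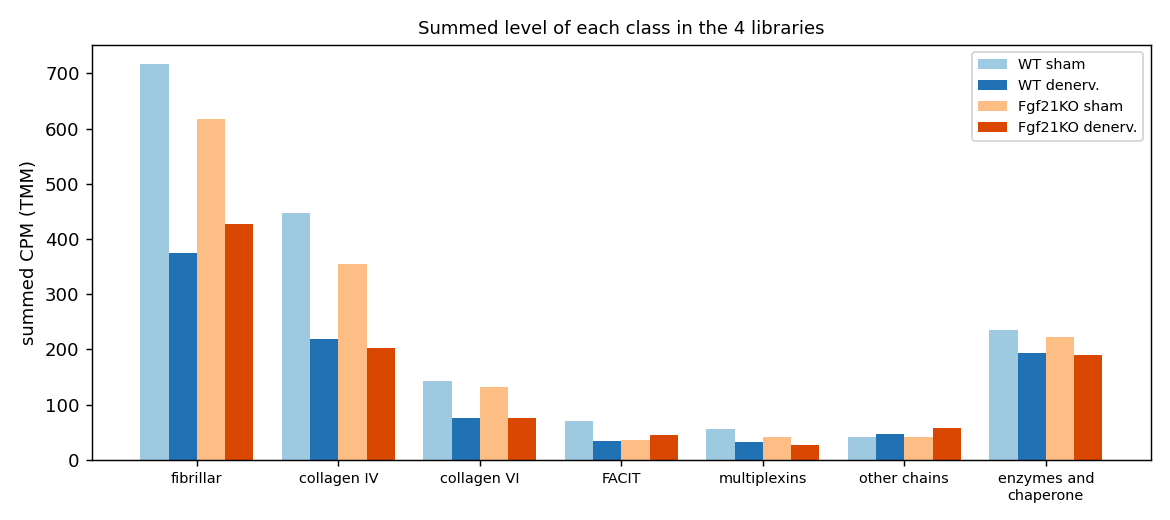
Summed CPM of each class in the 4 libraries, as bars from 0. Fibrillar, collagen IV and collagen VI sums are lower in both denervated libraries than in both sham libraries, while the FACIT sum is high in WS alone, at 69.4 CPM.

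Markers of other cell types moved as well. The 10 endothelial markers summed to 702 CPM in WS and 582 in KS, and to 314 in WD and 311 in KD, and 5 of them fell. The 7 pericyte and smooth muscle markers summed to 1138 and 1062 CPM in the sham libraries and to 677 and 672 in the denervated ones, and 6 fell. The 10 markers of fibro-adipogenic progenitors and fibroblasts analysed here summed to 564 and 641 CPM in the sham libraries (WS, KS) and to 428 and 400 in the denervated ones (WD, KD), and none of them passed the test. Gsn and Dcn, at 213 and 137 CPM in WS, made up most of that sum. In each genotype 8 of the 10 were lower after denervation and 2 higher. Pi16 had log2 ratios of 0.71 in WT and -1.05 in Fgf21KO, Tcf7l2 of 0.63 and 0.17, and Lum of -0.44 and 0.15. Schwann cell markers summed to 65.9 and 64.7 CPM in sham and to 25.3 and 25.5 in denervated muscle (3 of 6 fell), and macrophage markers to 33.1 and 37.1 against 74.8 and 73.3 (3 of 9 rose). Sox9 and Runx2, the chondrocyte and bone cell markers analysed here, both rose, and summed to 2.67 and 2.56 CPM in sham against 16.8 and 16.1 in denervated muscle. They did not move alike in WT, where their log2 ratios were 0.53, short of 2-fold, and 3.30. In Fgf21KO the ratios were 2.36 and 2.63, and between the sham libraries (KS vs WS) they ran from -1.43 to 0.54. The satellite cell markers Sdc4 and Vcam1 summed to 21.4 and 23.0 CPM against 58.8 and 53.4, but did not move together. Sdc4 rose, with log2 ratios of 1.67 in WT and 1.49 in Fgf21KO, while Vcam1 stood at -0.14 and -0.37. Only these 2 of the 6 satellite cell markers listed were analysed here. The adipocyte markers Fabp4 and Cfd, neither of which passed the test, summed to 245 and 242 against 174 and 178. The table lists only genes with at least 1 read in each library, so a marker at 0 would not appear in it. A marker not analysed here need not be at 0, and the sums cover only part of some lists. The part of these cell types in the collagen values was not tested.

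Among the 8 fibrillar chains, 1 fell and none rose. Col5a1, a chain of collagen V, which nucleates and limits the width of collagen I fibrils, had 864 reads in WS against 400 in WD, and 860 in KS against 469 in KD. Both denervated libraries lay well below both sham libraries. Its log2 ratio was -1.60 (-1.78 to -1.43) in WT and -0.93 (-1.10 to -0.77) in Fgf21KO, and the fitted denervation effect was -1.26 (adjusted p = 6.42e-10). The partner chains moved less, with Col5a2 at -0.79 and -0.41 and Col5a3 at -0.69 and -0.68. Per kilobase of transcript, Col5a1 stood at 85.8% of Col5a2 in WS and 84.4% in KS, and at 48.9% in WD and 58.6% in KD. The ratio between these collagen V chains was thus lower in both denervated libraries.

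Col1a1, which encodes the alpha-1 chain of collagen I, had 4053 reads in WS against 2464 in WD, and 4246 in KS against 2686 in KD. The fitted effect of -0.96 (adjusted p = 1.36e-10) missed the 2-fold limit narrowly. Its log2 ratio passed 2-fold in WT, at -1.21 (-1.28 to -1.14), and did not in Fgf21KO, at -0.72 (-0.79 to -0.65). Col1a2, the alpha-2 chain, had 4935, 3372, 5836 and 4103 reads, with ratios of -1.04 and -0.57 and a fitted effect of -0.80 (adjusted p = 3.29e-09). Col3a1, whose collagen III forms fine reticular fibres together with collagen I, had 5270, 4671, 5834 and 4676 reads. It moved least of these abundant chains, at -0.66 and -0.38, so that per kilobase it stood at 139% of Col1a1 in WS and 146% in KS, and at 202% in WD and 186% in KD. Col3a1, Col1a2 and Col4a1 had the highest levels per kilobase of the chains in WS, at 40.8, 39.7 and 36.9 CPM per kb, followed by Col4a2 at 30.4 and Col1a1 at 29.4. In the denervated libraries Col3a1 led, at 25.7 in WD and 27.2 in KD.

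The minor fibrillar chains went another way in Fgf21KO. Col11a2, a chain of collagen XI, had 164 reads in WS against 167 in WD, and 115 in KS against 210 in KD, which gave a ratio of -0.46 (-0.78 to -0.14) in WT, with an interval that takes in 0 under total counts alone, and 0.80 (0.48 to 1.15) in Fgf21KO. Col27a1 had 46, 62, 27 and 68 reads, with ratios of -0.06 and 1.21. In CPM, KS was the lowest library for both genes, and neither passed the test over the 4 libraries.

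Collagen IV held genes that moved in opposite directions. Col4a5 rose more than any other chain but Col25a1, Col4a3 and Col4a4 fell, and the abundant Col4a1 and Col4a2 were about 2-fold lower without passing the limit. The chains assemble in fixed sets: Col4a1 with Col4a2 in nearly all basement membranes, Col4a3 with Col4a4 and Col4a5, and Col4a5 with Col4a6. Col4a6 was not analysed here. The genes lie in head-to-head pairs. In the mouse annotation (GENCODE M21, GRCm38), Col4a1 on the minus strand and Col4a2 on the plus strand of chromosome 8 overlap by 22 bases at their starts, Col4a4 and Col4a3 on chromosome 1 are 71 bases apart, and Col4a6 and Col4a5 on the X chromosome are 1308 bases apart.

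The stretches before the starts of these genes are shown because one lies between the 2 genes that fell and the other before the gene that rose. They were read from the RefSeq promoter windows of GRCm38.p6, which held an entry for 29 of the 40 genes, and were searched for the E-box CANNTG, the site of muscle regulatory factors and other helix-loop-helix proteins. The motif reads the same on both strands. The first stretch is the whole interval between the Col4a4 and Col4a3 starts, chr1:82586850-82586920, written on the minus strand, the strand of Col4a4. It holds no CANNTG, which 25.1% of all 32851 windows hold in the same number of bases next to the start. The second runs up to the Col4a5 start, chrX:141475169-141475384 on the plus strand, with its single CANNTG in capitals, a motif that 61.1% of all windows hold over the same length.
Col4a3-Col4a4: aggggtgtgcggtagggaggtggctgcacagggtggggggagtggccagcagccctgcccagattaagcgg
Col4a5: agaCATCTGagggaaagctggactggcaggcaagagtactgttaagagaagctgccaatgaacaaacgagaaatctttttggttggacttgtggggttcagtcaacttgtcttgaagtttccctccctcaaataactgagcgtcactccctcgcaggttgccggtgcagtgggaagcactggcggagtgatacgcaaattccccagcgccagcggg

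Col4a5 had 30 reads in WS against 226 in WD, and 40 in KS against 243 in KD. The sham libraries were close to each other and the denervated libraries too, with no overlap between them. Its log2 ratio was 2.36 (1.87 to 3.02) in WT and 2.49 (2.06 to 3.06) in Fgf21KO, a rise of 5.14-fold and 5.60-fold (fitted effect 2.48, adjusted p = 3.35e-10). Col4a3 had 78, 38, 100 and 12 reads in WS, WD, KS and KD, with ratios of -1.47 (-2.13 to -0.95) and -2.91 (-4.12 to -2.25) and a fitted effect of -2.18 (adjusted p = 5.06e-06). Col4a4 had 59, 30, 116 and 57 reads, with ratios of -1.40 (-2.15 to -0.81) and -1.06 (-1.57 to -0.61) and a fitted effect of -1.25 (adjusted p = 0.000554). In CPM both were lower in the 2 denervated libraries than in the 2 sham libraries. The Col4a3 ratio in Fgf21KO rests on 12 reads in KD.

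Relative to its partners Col4a5 changed by a larger factor than on its own. Per kilobase it stood at 50.3% of Col4a3 in WS and 52.4% in KS, and at 7.78 times Col4a3 in WD and 26.5 times in KD. Against Col4a1, the most abundant collagen IV chain, it went from 0.536% in WS to 5.90% in WD and from 0.694% in KS to 7.08% in KD, so that it stayed a minor chain. Col4a1 had 5665, 3875, 5834 and 3473 reads, with ratios of -1.04 (-1.10 to -0.98) and -0.81 (-0.87 to -0.75). Col4a2 had 4559, 2994, 4427 and 2479 reads, with ratios of -1.10 (-1.16 to -1.03) and -0.89 (-0.97 to -0.82), and its fitted effect of -0.997 (adjusted p = 3.14e-12) lay just short of the limit. The Col4a1 to Col4a2 ratio per kilobase was 1.21, 1.26, 1.28 and 1.37 in WS, WD, KS and KD. These abundant chains therefore kept nearly the same ratio to each other.

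**Figure D3:**
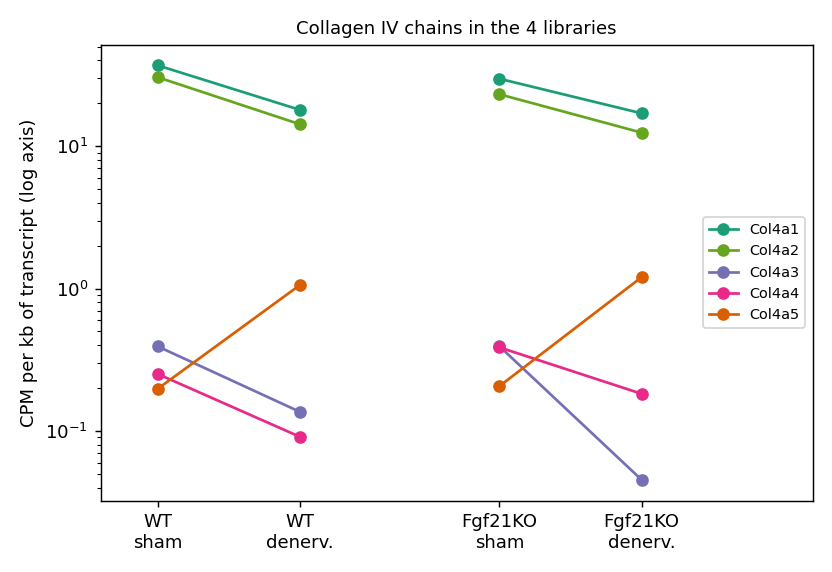
Level of each collagen IV chain in CPM per kb of transcript, on a log axis, in the sham and denervated libraries of WT (left) and Fgf21KO (right). Col4a5 goes from the lower group in sham, near 0.2 CPM per kb, to above 1 in both denervated libraries, while Col4a1 and Col4a2 run nearly parallel.

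Both multiplexins, which sit in basement membrane zones, were lower after denervation without reaching 2-fold. Col15a1 had 1043, 816, 970 and 634 reads, with ratios of -0.84 and -0.67 (adjusted p = 7.88e-08). Col18a1, the precursor of endostatin, had 264, 236, 253 and 219 reads, with ratios of -0.65 and -0.26 (adjusted p = 0.0132).

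Of the 4 collagen VI chains, 2 fell and 2 missed the limit. Col6a2 had 1147 reads in WS against 754 in WD, and 1365 in KS against 657 in KD, and fell by almost the same amount in both genotypes, with log2 ratios of -1.09 (-1.23 to -0.96) and -1.11 (-1.25 to -0.98) and a fitted effect of -1.10 (adjusted p = 1.85e-11). Its neighbour Col6a1, on the same strand of chromosome 10 with 85161 bases between the genes, had 1205, 854, 1544 and 877 reads, ratios of -0.99 and -0.87 and a fitted effect of -0.93 (adjusted p = 3.05e-10). Col6a1 and Col6a2 stood near 1 to 1 per kilobase in WS, at 1.01, and at 1.09, 1.09 and 1.29 in WD, KS and KD. Col6a3, the long alpha-3 chain, had 904, 827, 964 and 760 reads and moved less, at -0.62 and -0.40. Col6a6, a low-abundance chain that can take the place of Col6a3, had 61, 34, 66 and 26 reads and fell, with ratios of -1.28 and -1.33 and a fitted effect of -1.36 (adjusted p = 0.000844).

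**Figure D4:**
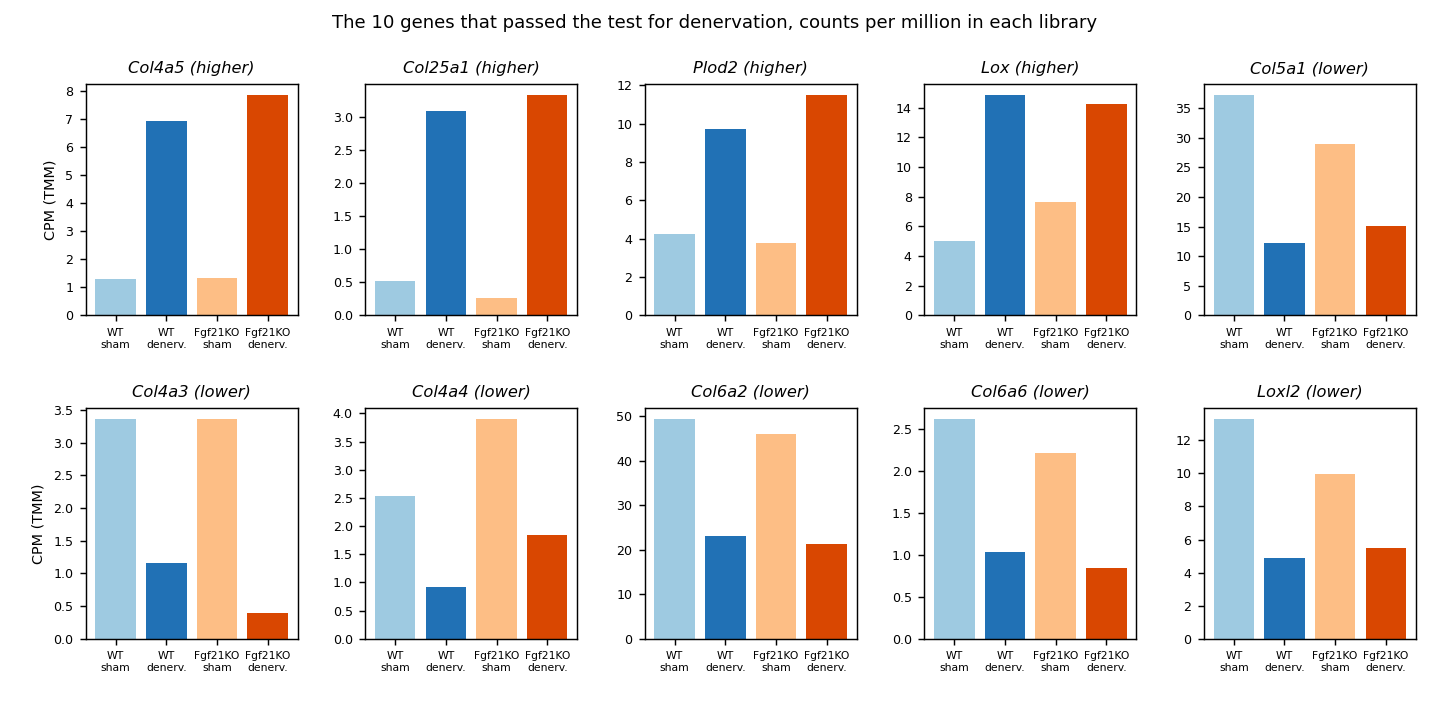
TMM-scaled CPM in each library for the 10 genes that passed the test for denervation, 4 higher and 6 lower, as bars from 0 with a separate axis for each gene. In each panel both denervated libraries lie on the same side of both sham libraries.

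The FACIT collagens, which decorate fibrils without forming them, had no member that passed the test, and they did not move as a group. Col12a1, a collagen of tendon and fascia that binds collagen I fibrils, had 860 reads in WS against 280 in WD, and 322 in KS against 581 in KD. It was lower after denervation in WT, at -2.10 (-2.31 to -1.91), and higher in Fgf21KO, at 0.79 (0.59 to 0.99). Between the sham libraries it was lower in KS, at -1.77, and between the denervated ones higher in KD, at 1.12. WS and KD were thus the high libraries and WD and KS the low ones. Col16a1 had 275, 156, 172 and 198 reads, with ratios of -1.30 (-1.60 to -1.02) and 0.14 (-0.16 to 0.45), so that WS stood alone above the other three libraries. Periostin (Postn), a matrix protein that is not one of the 40 genes, is named after its values were seen, and had 1232, 685, 558 and 955 reads, again highest in WS and KD. Of the tendon markers listed, Fmod and Mkx were analysed here. They summed to 59.7 CPM in WS and 67.3 in KS, against 30.1 in WD and 34.9 in KD. Most of that was Fmod, at 58.9 CPM in WS. Mkx fell, with denervation log2 ratios of -1.72 in WT and -0.66 in Fgf21KO, and Fmod did not pass the test. Mkx stood at -0.08 in KS vs WS and at 0.97 in KD vs WD, where Col12a1 stood at -1.77 and 1.12. The part of tendon in the Col12a1 values was not tested. Col14a1 ran the other way from Col12a1, at 0.07 (-0.26 to 0.40) in WT and -0.64 (-0.99 to -0.31) in Fgf21KO. Col20a1 had ratios of 0.01 and 0.23.

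Col25a1 rose. It encodes a transmembrane collagen known to be needed for motor axons to grow into developing muscle, and it had 12 reads in WS against 101 in WD, and 8 in KS against 103 in KD. The denervated libraries agreed closely, and the sham libraries held few reads. Its log2 ratio was 2.43 (1.71 to 3.58) in WT and 3.33 (2.60 to 4.88) in Fgf21KO, with a fitted effect of 3.06 (adjusted p = 6.61e-08). Col13a1, the other transmembrane collagen analysed here, which is found at the neuromuscular junction, had 32, 48, 25 and 47 reads, with ratios of 0.09 (-0.58 to 0.79) and 0.80 (0.12 to 1.61). It did not pass the test, and no change was detectable in WT at this depth.

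The 250 bases before the RefSeq start of Col25a1 are shown because this gene had the largest fitted rise of the 40. They lie at chr3:130180595-130180844 of GRCm38.p6, on the plus strand, inside the Col25a1 gene of GENCODE M21, which begins further upstream. They hold no CANNTG, which 66.2% of all windows hold. They do hold 2 exact copies of a stretch of 16 bases, given in capitals, with 70 bases between them. A repeat of at least that length, with copies that do not overlap, is present in 1.98% of all windows.
Col25a1: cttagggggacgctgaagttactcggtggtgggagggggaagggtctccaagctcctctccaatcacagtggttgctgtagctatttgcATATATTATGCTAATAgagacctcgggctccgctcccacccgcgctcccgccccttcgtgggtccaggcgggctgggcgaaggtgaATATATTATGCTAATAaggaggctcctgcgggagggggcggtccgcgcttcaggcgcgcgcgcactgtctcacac

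The other chains were higher or little changed. Col7a1, the anchoring fibril collagen, had 755, 1274, 1011 and 1396 reads, with ratios of 0.26 and 0.41 (adjusted p = 0.00182). Col8a1 and Col8a2, the short-chain collagens of vessel walls and eye, had ratios of -0.13 and -0.18 in WT and of 0.92 (0.65 to 1.20) and 1.17 (0.59 to 1.89) in Fgf21KO. With total counts alone the median WT ratio of these 3 chains, -0.13, turns to 0.15.

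The enzymes divided within each family. Of the prolyl 4-hydroxylases, which stabilise the helix, P4ha1 had 873, 1193, 1255 and 1135 reads and ratios near 0, at -0.04 and -0.20. P4ha2 had 623, 564, 766 and 454 reads and ratios of -0.63 and -0.81 (adjusted p = 1.57e-06). Neither reached 2-fold.

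Plod2, the lysyl hydroxylase that acts on the telopeptides and so sets the type of cross-link, rose. It had 98 reads in WS against 317 in WD, and 112 in KS against 355 in KD, with ratios of 1.19 (0.87 to 1.54) and 1.59 (1.30 to 1.93) and a fitted effect of 1.41 (adjusted p = 5.46e-08). Plod1, which acts on the helix, had 1128, 1089, 1255 and 1040 reads, with ratios of -0.54 and -0.33. Plod3, which also adds sugars to hydroxylysine, had 466, 677, 593 and 656 reads and ratios of 0.05 and 0.09. Per kilobase, Plod2 remained the lowest of the family, at 2.66 CPM per kb in WD and 3.15 in KD, against 10.3 and 10.4 for Plod1.

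Lox, the main cross-linking enzyme of fibrillar collagen and elastin, rose while Loxl2, a lysyl oxidase that also cross-links collagen IV, fell. Lox had 117 reads in WS against 484 in WD, and 226 in KS against 440 in KD. Its denervated libraries were close to each other, and its sham level was higher in KS than in WS, at a log2 ratio of 0.59 (0.27 to 0.93). The denervation ratio was 1.54 (1.26 to 1.86) in WT and 0.90 (0.67 to 1.14) in Fgf21KO, with a fitted effect of 1.20 (adjusted p = 1.19e-07). Loxl2 had 309, 159, 295 and 169 reads, with ratios of -1.44 (-1.73 to -1.17) and -0.85 (-1.14 to -0.58) and a fitted effect of -1.16 (adjusted p = 7.93e-07). Loxl1 had 247, 372, 262 and 298 reads and ratios of 0.10 and 0.13. Loxl3 had 100, 71, 92 and 80 reads and ratios of -0.96 and -0.25. Loxl4, with 26, 31, 29 and 10 reads, is too low for its ratios of -0.22 (-1.04 to 0.57) and -1.41 (-2.80 to -0.52) to be compared firmly. Summed, the family was level, at 34.4, 34.2, 30.4 and 32.2 CPM in WS, WD, KS and KD, although its median ratio, at -0.22 and -0.25, turns to 0.04 and 0.10 with total counts alone. Serpinh1, the collagen chaperone, had 1460, 1382, 1708 and 1215 reads and ratios of -0.57 and -0.55 (adjusted p = 9.75e-07), the same in both genotypes within the counting error.

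The comparisons of single pairs of libraries ask how each genotype responds and how the genotypes differ at each state of the nerve. In WD vs WS, 4 of the 40 genes were at least 2-fold higher and 12 at least 2-fold lower, against 7.18% and 7.61% of all genes. In KD vs KS, 5 were higher and 5 lower, against 7.51% and 6.1%. The 12 lower genes in WT included Col1a1, Col1a2, Col4a1 and Col4a2, whose ratios in Fgf21KO were between -0.89 and -0.57. With total counts alone the counts were 4 higher and 7 lower in WT, and 10 higher and 2 lower in Fgf21KO.

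The denervation ratio was less negative, or more positive, in Fgf21KO than in WT for 31 of the 40 genes (77.5%), against 49.2% of all genes tested. It was so for all 8 fibrillar chains, by a median of 0.48 on the log2 scale. For Col1a1 the difference was 0.49 (0.39 to 0.59), for Col1a2 0.47 (0.39 to 0.56), for Col3a1 0.29 (0.21 to 0.37) and for Col5a1 0.67 (0.43 to 0.90). For Col5a3, at 0.01 (-0.25 to 0.26), no difference was detectable. The collagen VI chains differed little, with a median of 0.05. The opposite sign was found for 9 genes, among them Col4a3, at -1.44 (-2.47 to -0.41), Col14a1, at -0.71 (-1.17 to -0.25), and Lox, at -0.65 (-1.02 to -0.28). These intervals cover counting error only. With 1 library per group the interaction of genotype and denervation was not tested, and the difference draws on both the sham and the denervated libraries: the median ratio of the fibrillar chains was -0.31 between the sham libraries (KS vs WS) and 0.20 between the denervated ones (KD vs WD).

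**Figure D5:**
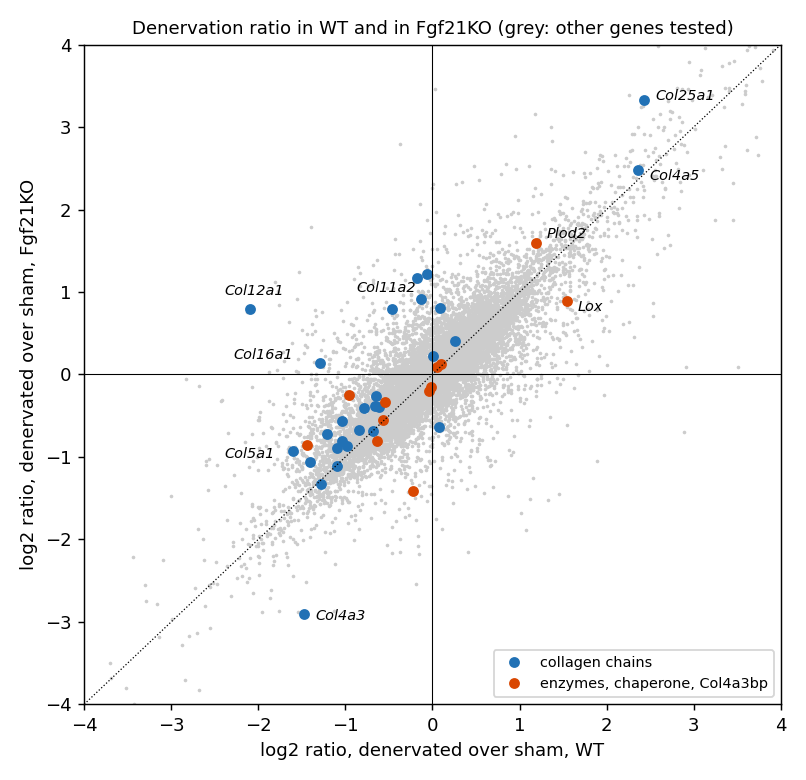
Log2 ratio of denervated over sham in WT (x axis) and Fgf21KO (y axis) for the collagen chains (blue), the enzymes, the chaperone and Col4a3bp (orange) and the other genes tested (grey, those beyond the axes not drawn), with equal ratios on the dotted line. Most collagen chains lie above the line, and Col12a1 and Col11a2 lie in the upper left part, lower in WT and higher in Fgf21KO.

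None of the 40 genes differed between genotypes over the 4 libraries by edgeR's quasi-likelihood test. Of all genes tested, 0.0611% were higher and 0.115% lower in Fgf21KO. At an unadjusted p below 0.05 there were 4 of the 40 genes (10%) and 1037 of all (7.93%), and DESeq2's Wald test also called 0 of the 40, with 2 at an unadjusted p below 0.05. Among the 4, Col4a2 was lower in Fgf21KO by a fitted log2 ratio of -0.30 (adjusted p = 0.055) and Col15a1 by -0.38 (adjusted p = 0.059), and both were lower in KS than in WS, and lower in KD than in WD. Col4a1 was at -0.20 (adjusted p = 0.38) and Col4a4 at 0.78 (adjusted p = 0.36). In single pairs, 3 genes were at least 2-fold lower in KS vs WS and 0 higher, where 1.15% and 0.887% of all genes were. They were Col12a1 at -1.77, Col27a1 at -1.07 and Col16a1 at -1.02. In KD vs WD, Col12a1 was the 1 gene at least 2-fold higher, at 1.12, and Col4a3 at -1.43 and Loxl4 at -1.38 were the 2 lower, where 0.841% of all genes were higher and 0.711% lower.

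The genes that work with the collagens were read from 6 further lists, of which 67 genes were tested. Of these, 2 rose and 3 fell with denervation, where 6.84% of all genes tested rose and 6.24% fell. Calls were thus no more frequent in these lists than among all genes. The median fitted log2 ratio of the 67 genes was -0.39, against -0.54 for the 40 genes and 0.01 for all genes. P3h2, a prolyl 3-hydroxylase that acts on collagen IV, rose from 44 and 49 reads in the sham libraries to 166 in WD and 196 in KD (fitted effect 1.69). Mmp3, a matrix protease, rose from 8 in WS and 18 in KS to 30 in WD and 34 in KD (1.08). Colgalt2, which glycosylates hydroxylysine, fell from 148 and 186 reads to 99 in WD and 85 in KD (-1.13). Tnxb (tenascin-X), which spaces collagen fibrils, fell from 879 and 1037 reads to 594 and 451 (-1.16). Lamc3, a laminin chain, fell in the fit (-1.25) with 38 reads in WS and WD, 106 in KS and 29 in KD, so its call rests mostly on Fgf21KO. The lowest list median was that of the 14 basement membrane partners, at -0.72, of which 13 were below 0, and the other 5 lists ran from -0.47 to -0.24.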

How the data were processed

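TA muscle RNA was sequenced as 1 pooled library per group from stranded mRNA libraries. The authors deposited read counts per gene and a second table on a log2 scale. Its name says FPKM, yet its values prove to be scaled counts: 2 to the power of the value, minus 1, divided by the count is a constant within a library. The submitters' notes name GRCm39 and FastQC, and the aligner and counter are not given in the sources used here, nor whether counting used strand. Groups follow the labels and the abbreviations of the study's supplementary legend.

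Genes averaging at least 10 counts (13084) were analysed with R 4.3.3, edgeR 4.0.16 and DESeq2 1.42.0, with TMM scaling, a prior count of 2 and Benjamini-Hochberg adjustment over all genes tested. Denervation and genotype were fitted together, without interaction, by edgeR's quasi-likelihood method (1 residual degree of freedom, biological coefficient of variation 0.0681). That 1 degree of freedom is the genotype difference in the denervation response, since each group is 1 library. The p-values therefore measure neither the spread between animals nor that between repeated libraries. In 5 sets of simulated counts over 13084 genes the fit recovered 99.7% of 200 genes changed 4-fold by denervation. The median number of false calls was 1. Those counts were drawn from the same additive model, with a coefficient of variation of 0.068 for every gene. They therefore do not show how the fit performs near 2-fold or where the genotypes respond differently. A floor of 3 counts equals 0.129 (WS), 0.0919 (WD), 0.101 (KS) and 0.0970 (KD) CPM. Pairs of libraries were compared by size, 2-fold or more. Alternatives were other scalings, filters, prior counts, DESeq2, an assumed variation and the second table.

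Lengths are those of the longest principal transcript of GENCODE M21 (GRCm38) and are approximate for counts made on another build. Named genes are the members called or at least 2-fold apart with a mean count of at least 50, the chains of collagens I, III, IV, V and VI, all enzymes, and the called genes of the pathway lists. Any other was chosen after its values were seen. Members and lists were chosen with earlier results of these data known. Exons of Col4a3, Col5a1, Col6a6, Plod2, Plod3, Lox, Loxl2 and Loxl3 overlap annotated transcripts on the other strand, as do those of Col4a1, Col4a2 and Col15a1, so their counts may include some reads of those. Figures were drawn with matplotlib 3.10.9 under Python 3.11.15.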

Additional observations from a re-analysis of the deposited data

Results flagged for a closer look

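Col12a1 and Col11a2 went in opposite directions with denervation in the 2 genotypes, each with counting intervals that leave out 0. Opposite signs as such were found for 7 of the 40 genes (17.5%) and for 17.2% of all genes tested. The log2 denervation ratio was higher in Fgf21KO than in WT by 2.89 for Col12a1 (2.61 to 3.17) and by 1.26 for Col11a2 (0.81 to 1.71). A difference of at least 1 in that direction was found for 6 of the 40 genes (15%) and 2.35% of all genes tested. Among those with a mean count of at least 50, it was found for 5 of 36 (13.9%) and for 0.751% of all genes tested. With total counts alone, chosen after seeing the data, Col12a1 kept both directions (-1.82 in WT and 1.15 in Fgf21KO), while the WT interval of Col11a2 took in 0 (-0.18, from -0.50 to 0.14). With 1 library per group, this difference between genotypes was not tested.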

How the results depend on the processing

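No paired analysis was possible because animals were pooled, beyond the genotype term of the fit, which already sets each denervated pool against the sham pool of its genotype. No library could be left out, since 3 libraries leave no residual degree of freedom in the fit. The 10 calls for denervation became 6 with total counts alone (Col4a4, Col5a1, Col6a2 and Loxl2 no longer fell) and 27 by the adjusted p alone. With DESeq2's size factors or Wald test Col4a2 was added to those that fell. Of the other pathway genes, DESeq2's Wald test called 3 in place of 5. The second table gave 5 genes at least 2-fold apart for KD vs KS (10 from the counts), and 1 for each of KS vs WS (3) and KD vs WD (3). The exact test between libraries at an assumed variation of 0.1 gave 1 in KD vs WD, and at 0.4 it gave 0 in each of the 4 pairs. With total counts alone the median ratio of the collagens VII and VIII in WD vs WS turned to 0.15, and that of the lysyl oxidases to 0.0437 for WD vs WS and 0.0956 for KD vs KS. The cause of the other changes was not tested. Genes under 50 reads in any library, such as Col4a3, Col25a1 and Loxl4, carry wide counting intervals.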
